A study of Mus musculus with 39 samples.

Results

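The insulin-like growth factor (IGF) system was followed in mouse left ventricle through 10 genes, found in the count table by symbol among 38293 genes. They are the ligands Igf1 and Igf2, the receptors Igf1r and Igf2r, and the binding proteins Igfbp2, Igfbp3, Igfbp4, Igfbp5, Igfbp6 and Igfbp7. RNA sequencing covered 39 libraries from C57BL6/J mice in 2 experiments. In the first, unoperated hearts carried R14del, a deletion of arginine 14 in phospholamban (Pln), the inhibitor of the SERCA calcium pump in heart muscle cells. Hearts labelled wt and Pln R14del/R14del (homozygous below) were taken at 3 weeks and at 5 weeks of age (n = 4 each), and at 8 weeks there were 3 wt, 4 Pln wt/R14del (heterozygous) and 4 homozygous hearts. In the second, male mice without the Pln deletion underwent surgery at 12 weeks of age. Left ventricle remote from the injured area was taken 3 days after ischemia-reperfusion, a coronary ligation that is later released (12 weeks old, n = 4), or 8 weeks after permanent ligation, called infarction here (20 weeks old, n = 4). Sham-operated hearts aged 12 weeks (n = 2) and 20 weeks (n = 2) were pooled as 1 control group of 4.

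IGF1 and IGF2 are secreted peptides that signal mainly through the tyrosine kinase receptor encoded by Igf1r, which feeds the PI3K and Akt arm and promotes growth and survival of cardiomyocytes. The receptor encoded by Igf2r binds IGF2 and carries it to lysosomes, and it also sorts lysosomal enzymes. Binding proteins hold the ligands outside the cell and can limit or prolong their action, and proteases such as pregnancy-associated plasma protein A release the ligands again. IGFBP7 is a distant relative that binds IGFs weakly. Igf2 is an imprinted fetal growth gene whose mRNA declines after birth in most rodent tissues.

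Depth ran from 9402904 to 19320791 counts per library. Replicates were compared in 57 pairs, none of which held identical counts, and all were kept as separate samples. Separate animals are not stated in the labels, so a p-value here reflects the variation among libraries, which may be technical. The 5-week libraries carried another style of sample code than the 3- and 8-week libraries, so that age and code series cannot be told apart for that age, while the comparison of genotypes lies within it. Of 10 cardiomyocyte markers, all 10 were detected in every group of these left ventricles. Gene counts do not show the Pln deletion, so they check no genotype label.

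All 10 genes were matched in GENCODE vM21 (GRCm38), and their counts are sums over exons. Igf1 lies on chromosome 10 from 87858265 to 87937042 on the plus strand, and Igf2 on chromosome 7 from 142650766 to 142666816 on the minus strand. Igf1r spans 67952827 to 68233668 on the plus strand of chromosome 7, and Igf2r 12682406 to 12769664 on the minus strand of chromosome 17. Igfbp2 and Igfbp5 are neighbours on chromosome 1, from 72824503 to 72852474 on the plus strand and from 72857932 to 72874884 on the minus strand. Igfbp3 lies on chromosome 11 from 7206086 to 7213923 (minus), Igfbp4 on the same chromosome from 99041244 to 99054392 (plus), Igfbp6 on chromosome 15 from 102144362 to 102149511 (plus) and Igfbp7 on chromosome 5 from 77349240 to 77408041 (minus). The end of Igfbp7 overlaps that of Polr2b on the other strand by 85 exon bases, or 7.03% of its exon length, and Igf2 shares 98 exon bases with the antisense gene Igf2os. Gm49394, annotated on the same strand, shares 3596 exon bases or 62.8% of the exon length of Igf2, and it is not among the genes counted here. No source used here gives the strand setting or the annotation release of the counting, and reads in those stretches are uncertain.

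Binding proteins dominated the mRNA of the system, and Igfbp7 was the most abundant of the 10 genes per length in all 10 groups. Levels here are CPM, read counts scaled to a fixed library size, with TMM scaling over all libraries, and between genes they are compared only as CPM per kb of exon. In wild type hearts at 8 weeks Igfbp7 stood at 158 ± 4.80 CPM per kb (SD, n = 3), and Igf2r and Igfbp5 followed at 27.4 ± 2.66 and 26.4 ± 1.62, with ranges that overlapped. Igfbp4 came next at 22.0 ± 0.851, followed by Igfbp6 at 11.4 ± 0.712, and below it Igfbp3 at 8.59 ± 2.22 and Igf2 at 6.46 ± 0.842 overlapped. Igf1 stood at 1.30 ± 0.118 and Igf1r at 0.471 ± 0.0805. Igfbp2, at 0.0238 ± 0.0206, rested on 2 counts in the 3 libraries. In homozygous hearts at 8 weeks the order changed below the top, with Igfbp6 at 112 ± 17.3 and Igfbp4 at 94.1 ± 5.78 CPM per kb in the places behind Igfbp7 at 769 ± 103 (n = 4). Igf1r and Igfbp2 were the lowest of the 10 in all 10 groups.

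**Figure D1:**
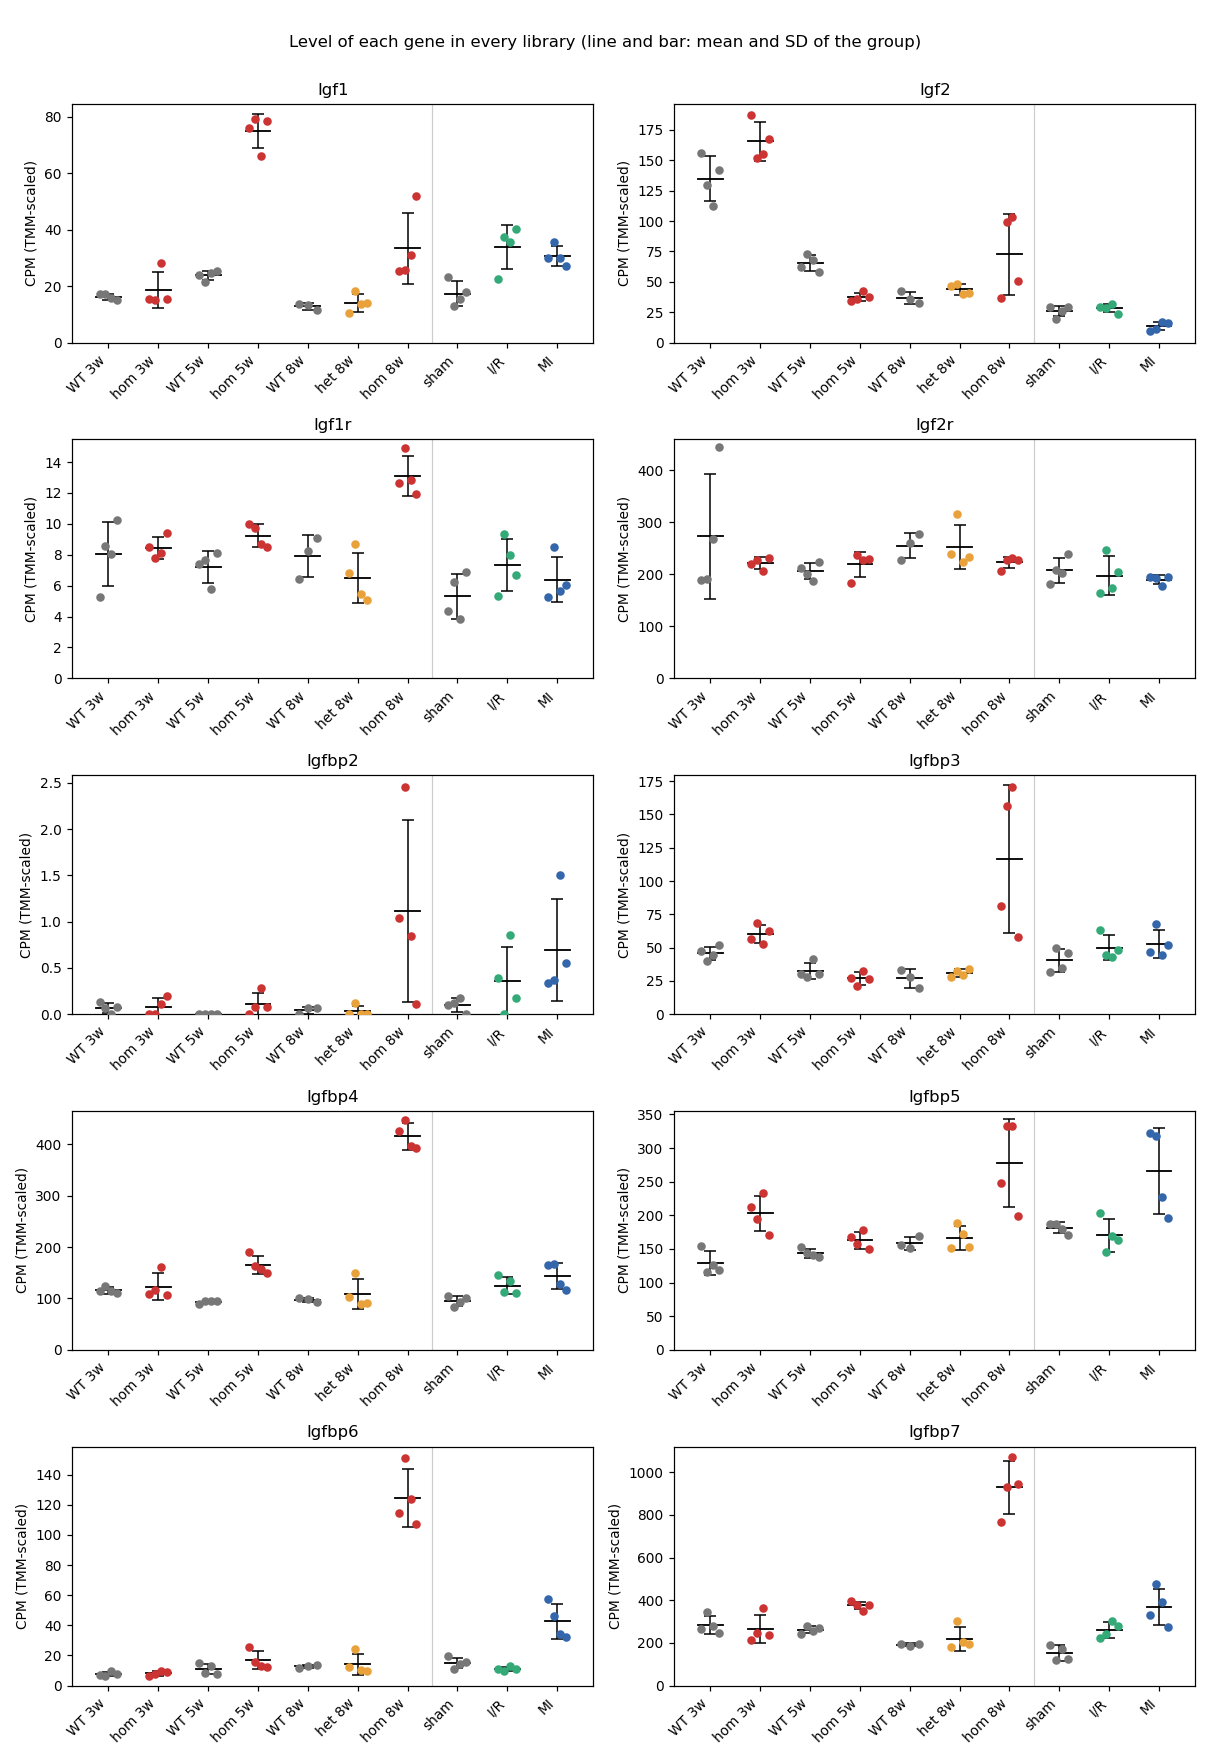
Level of each of the 10 genes in every library (points, TMM-scaled CPM, linear axis from 0), with the mean (line) and SD (bar) of each group; WT is wild type, hom homozygous, het heterozygous, I/R ischemia-reperfusion, MI infarction, and w weeks of age. Igfbp6 sits between 107 and 151 CPM in homozygous hearts at 8 weeks and between 32.4 and 57.4 CPM after infarction, above all sham and wild type libraries.

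Homozygous hearts at 8 weeks held more mRNA of both ligands, of the receptor Igf1r and of Igfbp3 to Igfbp7 than wild type hearts. The fold change was 2.56 for Igf1, 4.77 for Igfbp7 and 9.59 for Igfbp6, and Igf2r did not pass the test. By the quasi-likelihood test of edgeR with Benjamini-Hochberg adjustment over all genes and a threshold of 0.05, 8 of 9 genes other than Igfbp2 were higher and 0 lower, where 59.7% of all tested genes were called. Igfbp2 passed the filter on low counts at 8 weeks through the homozygous group, where it is high, so it is left out of these counts and described by its reads. At 5 weeks 5 of 9 tested genes were higher and 1 lower, against 43.7% of all genes called. At 3 weeks 0 of 9 were called, as were 0 of 13427 genes (0.0%). The 3 genes of the 9 with an unadjusted p under 0.05 were Igf2, Igfbp3 and Igfbp5, among 1515 such genes, and DESeq2 called 112 genes, Igfbp5 among them. Heterozygous hearts differed from wild type in 0 of 10 genes (Igfbp2 included) by edgeR (0.0% of 14314 genes called, 326 at an unadjusted p under 0.05, 0 called by DESeq2). Homozygous and heterozygous hearts differed in 8 of 9 genes other than Igfbp2, all higher in homozygous, against 61.9% of all genes. Both 8-week mutant groups were compared with the same 3 wild type libraries. The median log2 change of those 9 genes in homozygous hearts at 8 weeks was 1.36, beside 0.02 over all genes tested, and that of the 9 tested at 5 weeks was 0.35 beside -0.00.

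In the surgery set, 3 of 9 tested genes were higher 3 days after ischemia-reperfusion, Igf1, Igfbp4 and Igfbp7, where 31.0% of all genes were called. After infarction 5 of 9 were higher and Igf2 was lower, against 11.4% of all genes. Both injuries were set against the same 4 shams. Tested directly against each other, with 20.1% of all genes called, ischemia-reperfusion hearts held more Igf2 and less Igfbp5 and Igfbp6 than infarcted hearts. The medians over the 9 genes were 0.31 after ischemia-reperfusion and 0.55 after infarction, beside -0.02 and -0.00 over all genes.

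**Figure D2:**
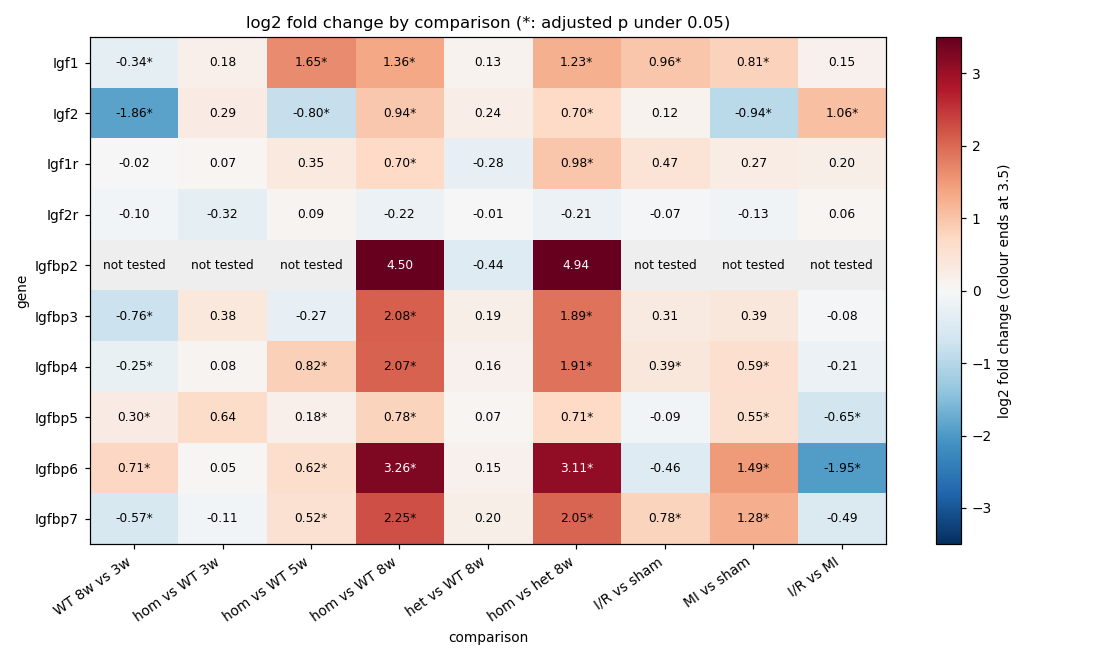
Log2 fold change of each gene (rows) in 9 comparisons (columns), with red for higher and blue for lower in the first-named group, the value in each cell, and a star where the edgeR adjusted p was under 0.05 (Igfbp2 carries none, since it passed the filter through the homozygous group); the colour scale ends at 3.5. In homozygous hearts Igf2 is blue at 5 weeks (-0.80) and red at 8 weeks (0.94), and Igf2r has no star.

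Marker genes of other cell types moved in the same comparisons. The sum of 10 fibroblast markers ran from 2336 to 2960 CPM in wild type and from 8028 to 12123 CPM in homozygous hearts at 8 weeks, with 10 of 10 higher. At 5 weeks it ran from 2611 to 2812 and from 4417 to 5273 CPM, with 9 of 10 higher. In shams it ran from 2465 to 3188 CPM, after ischemia-reperfusion from 3926 to 5988 (6 of 10 higher, 1 lower) and after infarction from 3425 to 4605 (8 of 10 higher). The sum of 8 markers of activated fibroblasts ran from 119.9 to 144 CPM in wild type and from 2258 to 3291 in homozygous hearts at 8 weeks (7 of 8 higher), and from 143 to 192 and 678 to 1218 CPM at 5 weeks (8 of 8 higher). In shams it ran from 96.0 to 215 CPM, after ischemia-reperfusion from 340.2 to 1330.2 (4 of 8 higher) and after infarction from 773 to 1815 (5 of 8 higher). Macrophage markers summed to 467 to 581 CPM in wild type and 1601 to 2745 CPM in homozygous hearts at 8 weeks (10 of 10 higher), and to 489 to 533 and 1841 to 2324 CPM at 5 weeks (9 of 10 higher, 1 lower). They ran from 344 to 565 CPM in shams, from 1221 to 1912 after ischemia-reperfusion (9 of 10 higher) and from 535 to 741 after infarction (2 of 10 higher). Cardiomyocyte markers were lower in 7 of 10 at 8 weeks, 9 of 10 at 5 weeks, 9 of 10 after ischemia-reperfusion and 1 of 10 after infarction. Endothelial markers were lower in 10 of 10 at 5 weeks, and smooth muscle and pericyte markers in 9 of 10 (2105 to 2348 CPM in wild type, 1335 to 1410 in homozygous hearts). At 8 weeks 3 of 10 endothelial markers were higher and 5 lower. Of smooth muscle and pericyte markers 1 was higher and 5 lower there (1736 to 1767 CPM in wild type, 885 to 1227 in homozygous hearts). Scarcer markers are given as sums alone, since some may have passed the filter only through the group where they are high. Epicardial or mesothelial markers summed to 5.06 to 8.03 CPM in wild type and 11.1 to 23.6 in homozygous hearts at 8 weeks. Neutrophil markers summed to 2.10 to 3.03 and 6.08 to 12.2 CPM there, and adipocyte markers to 3.22 to 4.80 and 6.88 to 24.1. After infarction adipocyte markers summed to 3.21 to 100.1 CPM against 0.858 to 11.8 in shams, with overlap. Mitochondrial genes held 15.2 to 16.5% of counts in wild type hearts at 8 weeks and 8.27 to 10.6% in homozygous replicates 2 to 4. Homozygous replicate 1 stood apart at 15.5%, with a cardiomyocyte sum of 65903 CPM against 34830 to 43465 in the other 3, and without it the 8 calls other than that of Igfbp2 stayed past the threshold. At 5 weeks the mitochondrial share was 19.9 to 21.1% in wild type and 14.6 to 15.9% in homozygous hearts, and it was 23.1 to 26.0% in shams, 18.5 to 21.4% after ischemia-reperfusion and 18.4 to 22.8% after infarction. No fibroblast, macrophage or cardiomyocyte marker was at 0 in a group. In bulk tissue fewer cells of a type and less RNA per cell cannot be told apart, and the part of these cell types in the changes below was not tested.

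Igf1, which encodes the ligand that acts on Igf1r, was highest in homozygous hearts at 5 weeks. The 4 wild type libraries held 24.1, 21.6, 24.6 and 25.4 CPM at that age, and the 4 homozygous libraries 76.0, 79.2, 66.0 and 78.7. The groups lay far apart, and the fold change was 3.14, or 1.65 ± 0.08 on the log2 scale (SE; edgeR adjusted p = 1.63e-11). At 3 weeks wild type hearts held 17.1, 17.3, 15.8 and 15.0 CPM and homozygous hearts 15.4, 15.0, 28.2 and 15.7. Only homozygous replicate 3 stood above the rest, and the log2 change of 0.18 ± 0.19 did not pass (edgeR adjusted p = 0.768). At 8 weeks the 3 wild type libraries held 13.8, 13.2 and 11.5 CPM and the homozygous libraries 25.4, 25.6, 31.1 and 52.0. All 4 homozygous values lay above wild type, with replicate 4 highest, and the log2 change was 1.36 ± 0.25 (edgeR adjusted p = 0.000507). Tested as an interaction over all 39 libraries, with 20.4% of all genes called, the genotype difference of Igf1 was larger at 5 than at 3 weeks by 1.46 ± 0.28 (edgeR adjusted p = 0.00036). Between 8 and 5 weeks, with 28.2% of all genes called, it differed by -0.27 ± 0.30 (edgeR adjusted p = 0.539), so a change between those ages was not shown. Heterozygous hearts at 8 weeks ranged from 10.4 to 18.2 CPM, around the wild type values.

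After ischemia-reperfusion Igf1 stood at 22.6, 37.3, 35.8 and 40.3 CPM, and after infarction at 30.0, 35.5, 29.8 and 27.1. The shams held 23.3 and 17.8 CPM at 12 weeks and 13.0 and 15.4 CPM at 20 weeks. Ischemia-reperfusion replicate 1 fell within the sham range, while every infarcted heart lay above it. The log2 change was 0.96 ± 0.18 after ischemia-reperfusion (edgeR adjusted p = 0.00103) and 0.81 ± 0.18 after infarction (edgeR adjusted p = 0.0117). Against shams of the same age alone it was 0.72 (edgeR adjusted p = 0.027) and 1.10 (edgeR adjusted p = 0.0109). A difference in Igf1 between the 2 injuries was not shown (0.15 ± 0.17, edgeR adjusted p = 0.587).

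Igf2, the imprinted fetal ligand, fell with age in wild type hearts and went in opposite directions in homozygous hearts at 5 and 8 weeks. Wild type libraries held 156, 129.5, 112 and 142 CPM at 3 weeks, 62.0, 73.2, 67.7 and 58.2 at 5 weeks and 42.3, 35.8 and 32.9 at 8 weeks. The 3 ages did not overlap. From 3 to 8 weeks Igf2 fell by 1.86 ± 0.12 on the log2 scale (edgeR adjusted p = 4.76e-08), in a comparison that called 16.2% of all genes. Homozygous hearts held 187, 152, 155 and 168 CPM at 3 weeks, a log2 difference of 0.29 ± 0.11 that did not pass (edgeR adjusted p = 0.379). At 5 weeks they held 34.4, 35.7, 42.1 and 37.6 CPM, all below wild type, and Igf2 fell by 0.80 ± 0.08 (edgeR adjusted p = 3.67e-07). At 8 weeks they held 37.0, 99.3, 103 and 50.9 CPM. Replicates 2 and 3 stood well above the wild type range and replicate 1 within it, and the log2 change was 0.94 ± 0.29 (edgeR adjusted p = 0.0124). That call ended without wild type replicate 3 (edgeR adjusted p = 0.0548). Homozygous hearts exceeded heterozygous hearts, at 46.7, 48.2, 39.7 and 40.4 CPM, by 0.70 ± 0.26 (edgeR adjusted p = 0.0316). This second call ended with the replicate number as a block (0.058) and without heterozygous replicate 3 or 4 or homozygous replicate 2 or 3 (edgeR adjusted p from 0.0729 to 0.114). The genotype difference itself changed between 5 and 8 weeks by 1.77 ± 0.29 (edgeR adjusted p = 1.99e-05), and between 3 and 5 weeks by -1.10 ± 0.27 (edgeR adjusted p = 0.00376).

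Igf2 also separated the surgical models. Infarcted hearts held 9.96, 11.5, 16.7 and 16.3 CPM, and shams 29.5 and 29.0 at 12 weeks and 19.7 and 25.9 at 20 weeks. Every infarcted heart lay below every sham, and Igf2 fell by 0.94 ± 0.17 on the log2 scale (edgeR adjusted p = 0.00339), or by 0.75 against the 20-week shams alone (edgeR adjusted p = 0.0374). Ischemia-reperfusion hearts held 29.5, 28.9, 32.0 and 23.7 CPM, a log2 difference of 0.12 ± 0.16 from shams (edgeR adjusted p = 0.61), and they exceeded infarcted hearts by 1.06 ± 0.17 (edgeR adjusted p = 0.000521). The 2 injured groups differed in age, 12 and 20 weeks, as well as in injury and time, which cannot be told apart in that contrast.

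H19, the imprinted noncoding neighbour of Igf2 on chromosome 7, was described beside it. At 8 weeks wild type hearts held 13.0, 11.4 and 14.5 CPM of H19, and homozygous hearts 59.4, 89.5, 79.7 and 50.2. All homozygous values lay above wild type, and replicates 2 and 3 were again the highest 2. The log2 change was 2.40 ± 0.25 (edgeR adjusted p = 6.46e-06). At 5 weeks, where Igf2 fell, H19 differed by -0.22 ± 0.13 (edgeR adjusted p = 0.199), and by -0.40 without homozygous replicate 3 (edgeR adjusted p = 0.00382). In the surgery set H19 rose after ischemia-reperfusion by 0.97 ± 0.24 (edgeR adjusted p = 0.00575) and fell by 0.83 ± 0.26 after infarction (edgeR adjusted p = 0.0492). The infarction ranges of H19, 5.14 to 8.00 CPM against 7.82 to 17.3 in shams, overlapped. That call ended without any 1 of the infarcted libraries or either second sham, with other scalings, with the block, with all libraries fitted and against 20-week shams alone (edgeR adjusted p from 0.0511 to 0.249). The H19 rise after ischemia-reperfusion did not pass against 12-week shams alone (edgeR adjusted p = 0.081). Between 3 and 8 weeks in wild type it fell by 1.27 ± 0.23 (edgeR adjusted p = 0.00134).

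Igf1r, the signalling receptor, stood at 6.42, 8.27 and 9.06 CPM in wild type and at 12.7, 14.9, 12.9 and 11.9 CPM in homozygous hearts at 8 weeks. The groups did not overlap, and the log2 change was 0.70 ± 0.18 (edgeR adjusted p = 0.00534). In heterozygous hearts it stood at 6.81, 8.67, 5.46 and 5.09 CPM, below all homozygous libraries (homozygous over heterozygous 0.98 ± 0.17, edgeR adjusted p = 0.000275). At 5 weeks wild type hearts held 7.40, 7.68, 5.75 and 8.12 CPM and homozygous hearts 10.01, 9.70, 8.72 and 8.50. The ranges were apart, yet the log2 difference of 0.35 ± 0.15 did not pass (edgeR adjusted p = 0.0606). With scaling by library size alone it was 0.56 and passed (edgeR adjusted p = 0.00427). After ischemia-reperfusion and infarction the log2 differences were 0.47 ± 0.23 and 0.27 ± 0.23 and did not pass (edgeR adjusted p = 0.14 and 0.501). Its range was 5.36 to 9.32 CPM after ischemia-reperfusion, 5.28 to 8.52 after infarction and 3.86 to 6.90 in shams, all overlapping. At 3 weeks it was 5.25 to 10.2 CPM in wild type and 7.77 to 9.40 in homozygous hearts.

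Igf2r, which encodes the receptor that clears IGF2, was called in none of the 9 comparisons between 2 groups. Its group means at 8 weeks, 27.4 ± 2.66 CPM per kb in wild type and 24.0 ± 1.17 in homozygous hearts, gave a log2 difference of -0.22 ± 0.12 (edgeR adjusted p = 0.134). With scaling by library size alone it was called higher at 5 weeks (log2 change 0.30, edgeR adjusted p = 0.00459), where that scaling moved the median of all genes to 0.21. At 3 weeks the wild type libraries held 188, 192, 268 and 445 CPM, and the homozygous libraries 219.6, 228, 205 and 231. Wild type replicate 4 stood highest, and replicate 3 also lay above every homozygous library. Without replicate 4 the log2 difference of -0.32 ± 0.23 became 0.02. The antisense RNA Airn starts inside Igf2r and in the mouse is needed to silence its paternal copy. Airn was singled out after its values were seen. In wild type hearts at 3 weeks it stood at 6.52, 6.82, 7.51 and 0.551 CPM, and the last value, 7 counts, belongs to the library with the highest Igf2r. The next highest Igf2r, 316 CPM in heterozygous replicate 2 at 8 weeks, came with 3.03 CPM of Airn, below the 7.30, 5.69 and 6.62 CPM of the other heterozygous libraries. Low Airn did not go with high Igf2r in every group. After infarction Airn ran from 4.59 to 6.72 CPM, against 5.75 to 14.1 in shams. Igf2r ran from 178 to 195 CPM in those infarcted hearts, against 181 to 239 in shams. A relation between the 2 RNAs was not tested. Airn shares no exon bases with Igf2r.

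**Figure D3:**
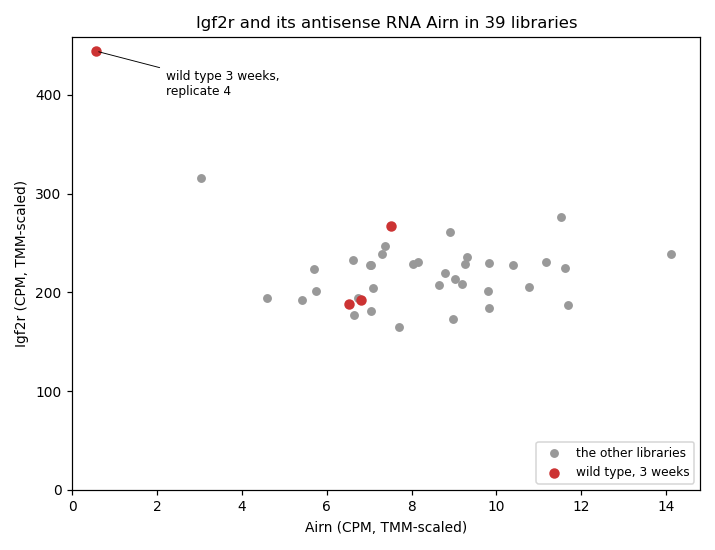
Igf2r against its antisense RNA Airn in the 39 libraries (1 point each, both axes TMM-scaled CPM), with the 4 wild type hearts at 3 weeks in red. The library with 0.551 CPM of Airn has 445 CPM of Igf2r, and the one with 3.03 CPM of Airn has 316. Infarcted hearts have 4.59 to 6.72 CPM of Airn and 178 to 195 CPM of Igf2r.

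Among the binding proteins, Igfbp4, Igfbp5, Igfbp6 and Igfbp7 were called higher at 5 and at 8 weeks in homozygous hearts and after infarction. The calls of Igfbp5 and Igfbp6 at 5 weeks and of Igfbp5 after infarction were lost in some alternative runs, given below. For Igfbp4, Igfbp6 and Igfbp7, which had the largest log2 changes of Igfbp4 to Igfbp7 after infarction, the 250 bases before their RefSeq start sites (GRCm38.p6) are shown. They lie at chr11:99040994-99041243 on the plus strand for Igfbp4, chr15:102143936-102144185 on the plus strand for Igfbp6 and chr5:77408046-77408295 on the minus strand for Igfbp7. Capitals mark matches on either strand to the GC box GGGCGG, the TATA box TATAAA or the CCAAT box CCAAT.
Igfbp4: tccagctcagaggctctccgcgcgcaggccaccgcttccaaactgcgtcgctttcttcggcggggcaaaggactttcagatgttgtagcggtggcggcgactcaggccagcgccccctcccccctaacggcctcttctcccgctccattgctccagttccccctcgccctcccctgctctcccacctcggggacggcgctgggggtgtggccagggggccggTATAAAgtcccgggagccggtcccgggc
Igfbp6: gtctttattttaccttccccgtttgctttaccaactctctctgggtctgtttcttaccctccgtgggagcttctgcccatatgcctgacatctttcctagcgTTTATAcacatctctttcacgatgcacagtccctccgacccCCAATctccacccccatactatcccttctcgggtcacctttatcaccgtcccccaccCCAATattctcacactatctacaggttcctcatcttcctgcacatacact
Igfbp7: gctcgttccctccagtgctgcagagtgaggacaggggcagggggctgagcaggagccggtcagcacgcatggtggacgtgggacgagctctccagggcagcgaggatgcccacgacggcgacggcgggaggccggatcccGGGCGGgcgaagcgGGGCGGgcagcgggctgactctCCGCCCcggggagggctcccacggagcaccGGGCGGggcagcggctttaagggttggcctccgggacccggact
The 3 windows differ in these letters. That of Igfbp7 holds 4 GC boxes and is 74.0% G and C, against a median of 52.4% over all 32851 windows, of which 32.7% hold a GC box. The Igfbp4 window is 69.2% G and C and holds a TATA box that begins 28 bases before the start, and 12.4% of all windows hold one somewhere. The Igfbp6 window is 49.6% G and C, with 2 CCAAT boxes, found in 33.9% of all windows. Its match to the TATA box reads TTTATA, so it lies on the strand opposite to the gene, 148 bases before the RefSeq start. That window ends at 102144185, upstream of the GENCODE start of Igfbp6 at 102144362. Those of Igfbp4 and Igfbp7 end at or close to their GENCODE starts, so the 3 windows do not hold the same position relative to those starts. None of the 3 holds the AP-1 site TGANTCA, found in 6.75% of all windows. A match describes letters and not a bound factor.

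Igfbp6, which encodes a binding protein that prefers IGF2, had the largest fold change at 8 weeks apart from the scarce Igfbp2. Wild type hearts at 8 weeks held 11.9, 12.7 and 13.5 CPM, and homozygous hearts 115, 151, 124 and 107. The groups were far apart, with a fold change of 9.59, or 3.26 ± 0.28 on the log2 scale (edgeR adjusted p = 1.73e-06). At 5 weeks wild type hearts held 14.8, 8.39, 12.7 and 7.78 CPM and homozygous hearts 25.6, 15.8, 13.2 and 12.5. Those ranges overlapped, and the log2 change of 0.62 ± 0.22 (edgeR adjusted p = 0.0258) lost its call without homozygous replicate 1 (0.35, edgeR adjusted p = 0.145), without wild type replicate 2 or 4 (edgeR adjusted p = 0.0867 and 0.097), with all 39 libraries in the fit (edgeR adjusted p = 0.0529) and by DESeq2 (adjusted p = 0.138). The genotype difference grew by 2.66 ± 0.36 between 5 and 8 weeks (edgeR adjusted p = 1.17e-06). After infarction Igfbp6 stood at 57.4, 46.2, 34.4 and 32.4 CPM, all above the shams with 19.4, 15.7, 11.2 and 14.2 (log2 change 1.49 ± 0.18, edgeR adjusted p = 0.000297). After ischemia-reperfusion it stood at 10.9, 9.57, 12.8 and 10.8 CPM, a log2 difference of -0.46 ± 0.19 from shams (edgeR adjusted p = 0.0831). It was lower than after infarction, at a log2 difference of -1.95 ± 0.19 (edgeR adjusted p = 9.91e-06). Against the 12-week shams alone the ischemia-reperfusion difference of -0.68 passed (edgeR adjusted p = 0.0464), as it did without the first 20-week sham. At 3 weeks both genotypes held little, from 6.44 to 9.79 CPM in wild type and from 6.53 to 9.88 in homozygous hearts.

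Igfbp7, the weak IGF binder also secreted by vessels and senescent cells, rose in homozygous hearts at 5 and 8 weeks and after both injuries. At 8 weeks wild type hearts held 195, 185 and 195 CPM and homozygous hearts 768, 932, 1072 and 946. Every homozygous value exceeded the wild type range, at a fold change of 4.77, or 2.25 ± 0.18 on the log2 scale (edgeR adjusted p = 9.98e-07). At 5 weeks wild type hearts held 242, 281, 254 and 268 CPM and homozygous hearts 396, 375, 351 and 378, apart again (0.52 ± 0.07, edgeR adjusted p = 3.17e-06). Infarcted hearts held 333, 475, 389.6 and 276 CPM, and ischemia-reperfusion hearts 222, 241, 304 and 280.0. Both groups lay above the shams, which held 192, 123, 119 and 173, with log2 changes of 1.28 ± 0.18 (edgeR adjusted p = 0.000595) and 0.78 ± 0.18 (edgeR adjusted p = 0.00343). At 3 weeks the log2 difference between genotypes was -0.11 ± 0.16 (edgeR adjusted p = 0.843), and the ranges, 247 to 345 CPM in wild type and 214 to 363 in homozygous hearts, overlapped.

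Igfbp4, which encodes a binding protein that restrains IGF action until a protease cleaves it, rose in the same comparisons as Igfbp7. Wild type hearts held 88.9, 94.6, 95.3 and 95.4 CPM at 5 weeks and 100.1, 98.7 and 93.0 at 8 weeks. Homozygous hearts held 191, 163, 158 and 149 CPM at 5 weeks and 426, 447, 396 and 394 at 8 weeks. Neither age had any overlap, and the log2 changes were 0.82 ± 0.07 (edgeR adjusted p = 4.58e-08) and 2.07 ± 0.16 (edgeR adjusted p = 1.02e-06). The genotype difference was larger at 5 than at 3 weeks by 0.73 ± 0.19 (edgeR adjusted p = 0.00516) and larger at 8 than at 5 weeks by 1.27 ± 0.20 (edgeR adjusted p = 8.65e-06). Infarcted hearts held 165, 167, 129 and 117 CPM against 105, 100.4, 84.1 and 92.5 in shams (0.59 ± 0.13, edgeR adjusted p = 0.00805). Ischemia-reperfusion hearts held 145, 112, 134 and 110.4 CPM. Their log2 change of 0.39 ± 0.13 (edgeR adjusted p = 0.0288) lost its call against 12-week shams alone (edgeR adjusted p = 0.236) and without ischemia-reperfusion replicate 1 or 3 or either 20-week sham (edgeR adjusted p from 0.0692 to 0.0916).

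Igfbp3, which encodes the main carrier of IGFs in blood, rose in homozygous hearts at 8 weeks and not at 5. Wild type hearts at 8 weeks held 33.2, 28.1 and 19.4 CPM and homozygous hearts 81.0, 156, 171 and 58.2. The groups were apart, with replicates 2 and 3 the highest as for Igf2, and the log2 change was 2.08 ± 0.33 (edgeR adjusted p = 0.000134). At 5 weeks wild type hearts held 30.0, 27.8, 41.2 and 30.4 CPM and homozygous hearts 26.9, 21.4, 32.6 and 26.2. These overlapped, with a log2 difference of -0.27 ± 0.13 that did not pass (edgeR adjusted p = 0.0907). It passed as lower without the filter (edgeR adjusted p = 0.0161), with the replicate number as a block (0.0154), and without wild type replicate 2 (0.0496) or homozygous replicate 3 (0.0234). The 2 ages differed in effect by 2.39 ± 0.33 (edgeR adjusted p = 1.83e-06). At 3 weeks every homozygous value, from 52.5 to 68.2 CPM, lay above wild type, from 40.0 to 51.7, yet the log2 difference of 0.38 ± 0.10 did not pass (edgeR adjusted p = 0.267). After ischemia-reperfusion and infarction the log2 differences of 0.31 ± 0.16 and 0.39 ± 0.16 did not pass (edgeR adjusted p = 0.176 and 0.143). Its range was 43.1 to 63.3 CPM after ischemia-reperfusion, 44.1 to 68.1 after infarction and 32.0 to 49.3 in shams, so the groups overlapped. Heterozygous hearts held 27.6 to 33.9 CPM, far below the homozygous group.

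Igfbp5 encodes a binding protein with affinity for matrix. At 3 weeks wild type hearts held 155, 116, 126 and 119 CPM and homozygous hearts 212, 195, 233 and 171. All homozygous values were above wild type, and the log2 difference was 0.64 ± 0.12. It did not pass in the fit of the 3-week libraries (edgeR adjusted p = 0.21), in which no gene did, and it passed without the filter on low counts (edgeR adjusted p = 0.0186), with all 39 libraries in the fit (edgeR adjusted p = 0.0304) and by DESeq2 (adjusted p = 0.000392). At 5 weeks the log2 change was 0.18 ± 0.07 (edgeR adjusted p = 0.0341) with overlapping ranges, a call lost in the fit of all 39 libraries (edgeR adjusted p = 0.323) and when wild type replicate 2, 3 or 4 or homozygous replicate 1 or 3 was left out (edgeR adjusted p from 0.0602 to 0.106). At 8 weeks wild type hearts held 155, 151 and 169.7 CPM and homozygous hearts 248, 332, 332 and 199. Replicates 2 and 3 were again highest, and the log2 change was 0.78 ± 0.16 (edgeR adjusted p = 0.001). Infarcted hearts held 323, 318, 228 and 196 CPM, above the shams with 188, 170.4, 188 and 179. That log2 change of 0.55 ± 0.14 (edgeR adjusted p = 0.0226) lost its call against 20-week shams alone (edgeR adjusted p = 0.0983) and without infarction replicate 1 or 2, the first 20-week sham or the second 12-week sham (edgeR adjusted p from 0.0541 to 0.086). Ischemia-reperfusion hearts held 203, 145, 169.9 and 163 CPM, overlapping the shams, and less than infarcted hearts (log2 change -0.65 ± 0.14, edgeR adjusted p = 0.00504).

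Igfbp2, a binding protein that is abundant in fetal tissue, was near the limit of detection. Its libraries summed to 2 counts in 3 wild type hearts, 2 in 4 heterozygous hearts and 82 in 4 homozygous hearts at 8 weeks. The homozygous libraries held 1.03, 2.46, 0.847 and 0.111 CPM, so that replicate 4 was close to wild type while replicate 2 was far above it. The ratio of homozygous to wild type counts per effective library size was 27.2, with an exact 95% interval of 7.29 to 228 that covers counting error only. Without homozygous replicate 1, 2 or 3 it did not pass the filter. After infarction 34 counts stood against 4 in shams, a ratio of 7.17 with an interval of 2.56 to 27.8. The infarcted libraries ranged from 0.340 to 1.51 CPM and the shams from 0 to 0.172, without overlap, and ischemia-reperfusion libraries from 0 to 0.858. Igfbp2 did not pass the filter in that fit, and with all 39 libraries in the fit the comparison gave an edgeR adjusted p of 0.0653.

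Summed per length, the mRNA of Igfbp2 to Igfbp7 stood at 227 ± 5.40 CPM per kb in wild type (SD, n = 3) and 1059 ± 127 in homozygous hearts at 8 weeks (n = 4). At 5 weeks the sums were 281 ± 10.2 and 399 ± 22.0, and at 3 weeks 304 ± 33.8 and 307 ± 63.9. Shams stood at 204 ± 31.5, ischemia-reperfusion hearts at 299 ± 28.9 and infarcted hearts at 437 ± 87.3. Igfbp7 made up 69.8% ± 0.589 of the sum in wild type and 72.6% ± 3.45 in homozygous hearts at 8 weeks. The share of Igfbp6 was 5.05% ± 0.359 and 10.6% ± 1.45, and that of Igfbp5 11.6% ± 0.627 and 4.35% ± 0.752. After infarction Igfbp6 took 8.84% ± 2.16 against 6.65% ± 1.02 in shams, and after ischemia-reperfusion 3.31% ± 0.174. These shares are descriptions, with no test of their own.

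**Figure D4:**
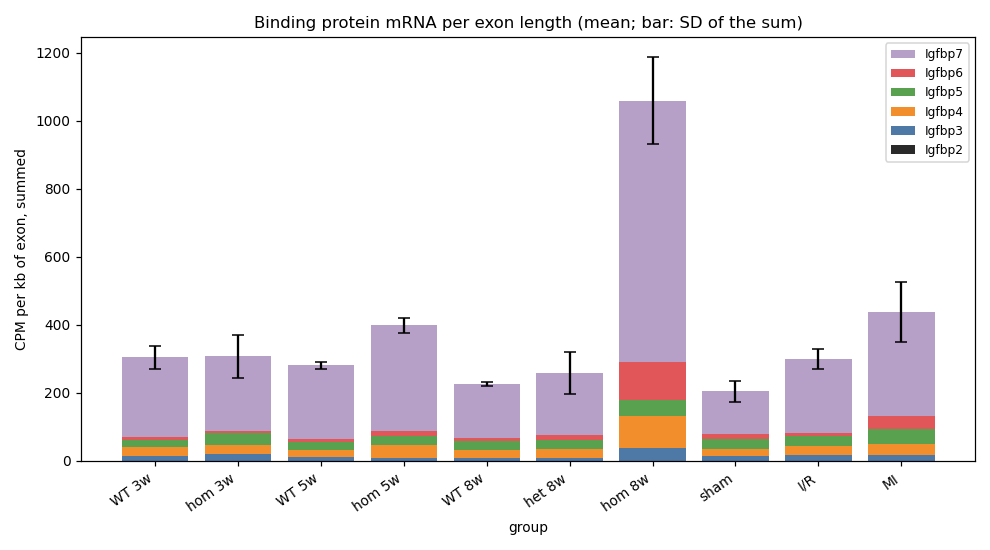
Summed mRNA of the 6 binding proteins per exon length (stacked bars, mean CPM per kb of exon for each gene; black bars, SD of the sum) by group. The sum is 1059 CPM per kb in homozygous hearts at 8 weeks and 437 after infarction, beside 227 in wild type hearts at 8 weeks and 204 in shams.

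The homozygous difference at 8 weeks was tested against the infarction difference, which has its own controls, in a comparison with 37.4% of all genes called. It was larger for Igf2 by 1.91 ± 0.30 (edgeR adjusted p = 6.9e-06), and for Igf2 the 2 differences had opposite signs. Among binding proteins it was larger for Igfbp6 by 1.80 ± 0.35 (edgeR adjusted p = 0.000104), Igfbp3 by 1.72 ± 0.33 (edgeR adjusted p = 8e-05), Igfbp4 by 1.5 ± 0.20 (edgeR adjusted p = 3.83e-07) and Igfbp7 by 1.0 ± 0.25 (edgeR adjusted p = 0.00147). For Igf1 and Igfbp5 the differences of 0.57 ± 0.30 and 0.25 ± 0.20 did not pass (edgeR adjusted p = 0.137 and 0.344). These models also differ in age, surgery and tissue region, which cannot be told apart here.

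In heterozygous hearts at 8 weeks 1 library stood apart. Replicate 2 held 303 CPM of Igfbp7 against 180.1, 203 and 195 in the other 3, 151 CPM of Igfbp4 against 103, 89.6 and 90.8, and 24.6 CPM of Igfbp6 against 12.0, 10.1 and 9.87. It was the highest of its group for each. The same library had the largest fibroblast sum of its group, 3858 CPM against 2667 to 2853, and the largest sum of activated fibroblast markers, 355 against 107 to 159. Without it the heterozygous difference from wild type was 0.01 for Igfbp7, -0.04 for Igfbp4 and -0.25 for Igfbp6, with 0 of 10 genes called. At 3 weeks homozygous replicate 3 stood out in the same way, with 162 CPM of Igfbp4 against 107 to 116 in the other 3, and with the highest fibroblast sum (4065 against 2689 to 3219 CPM) and activated fibroblast sum (359 against 151 to 184 CPM) of its group. The part of these cell types in either library was not tested.

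With age in wild type hearts, 7 of 9 genes changed between 3 and 8 weeks, where 16.2% of all genes were called. Besides Igf2, lower genes were Igfbp3 (-0.76 ± 0.15, edgeR adjusted p = 0.00252), Igfbp7 (-0.57 ± 0.09, edgeR adjusted p = 0.000591), Igf1 (-0.34 ± 0.10, edgeR adjusted p = 0.0255) and Igfbp4 (-0.25 ± 0.07, edgeR adjusted p = 0.0141). Higher genes were Igfbp6 (0.71 ± 0.19, edgeR adjusted p = 0.0163) and Igfbp5 (0.30 ± 0.09, edgeR adjusted p = 0.0265). Markers moved in that comparison too, with 6 of 10 fibroblast markers lower (summed level 3124 to 3503 CPM at 3 weeks and 2336 to 2960 at 8 weeks), 3 of 8 of activated fibroblasts (167 to 296 and 119.9 to 144), 5 of 5 erythroid (289 to 874 and 82.9 to 274) and 4 of 5 cell cycle markers (19.7 to 71.4 and 12.2 to 18.4). Their part in the result was not tested. Igf1 did not fall steadily, since it ran from 15.0 to 17.3 CPM at 3 weeks, 21.6 to 25.4 at 5 weeks and 11.5 to 13.8 at 8 weeks. With all 39 libraries in the fit, or without wild type replicate 3 at 8 weeks, 3 of the 7 were called. Igf1, Igfbp4, Igfbp5 and Igfbp6 lost their calls in both runs (edgeR adjusted p from 0.102 to 0.396 and from 0.0566 to 0.123). Igf1, Igfbp5 and Igfbp6 also lost theirs without some other single libraries (edgeR adjusted p from 0.0521 to 0.0697).

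Around these genes, 55 other genes of the pathway were followed. At 8 weeks 16 of 50 tested were higher and 16 lower in homozygous hearts, so that 64% were called beside 59.7% of all genes. At 5 weeks 7 of 49 were higher and 18 lower, or 51% beside 43.7%, and at 3 weeks 0 of 49. These shares lie near those of all genes and say nothing particular of the pathway. Among genes that set IGF availability, Stc2, whose product inhibits the protease PAPP-A, rose at 8 weeks by 1.15 ± 0.22 (edgeR adjusted p = 0.000644). Pappa, which encodes that protease, was scarce, with 21 counts in 3 wild type, 32 in 4 heterozygous and 120 in 4 homozygous hearts at 8 weeks. It ran from 0.379 to 0.480 CPM in wild type and from 1.28 to 2.33 CPM in homozygous hearts. Like Igfbp2 it passed the filter there through the homozygous group, so no test is given for it, though it is among the 16 counted as higher. Htra3, a secreted serine protease, rose by 1.37 ± 0.12 (edgeR adjusted p = 1.8e-06). Igfals, the acid-labile subunit that carries IGF complexes in blood, fell by 1.46 ± 0.38 (edgeR adjusted p = 0.00484). Stc2 had fallen at 5 weeks by 0.53 ± 0.10 (edgeR adjusted p = 0.000333), and the effect differed between the 2 ages by 1.71 ± 0.29 (edgeR adjusted p = 3.96e-05). Igfbp1, chiefly a liver gene, had 0 or 1 count in every group.

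In the growth hormone axis at 8 weeks, Stat5a and Stat5b, transcription factors that drive Igf1 in liver, fell by 1.31 ± 0.10 (edgeR adjusted p = 9.43e-07) and 0.93 ± 0.07 (edgeR adjusted p = 1.09e-06). The receptor gene Ghr fell by 0.52 ± 0.11 (edgeR adjusted p = 0.00108). Igf1 rose in the same hearts. Ghr was also lower at 5 weeks (-0.27 ± 0.07, edgeR adjusted p = 0.0045), after ischemia-reperfusion (-0.30 ± 0.08, edgeR adjusted p = 0.00956) and after infarction (-0.38 ± 0.08, edgeR adjusted p = 0.00677). With scaling by library size alone the 5-week and ischemia-reperfusion changes of Ghr were -0.06 and -0.07 and did not pass (edgeR adjusted p = 0.461 and 0.547), nor did the second against 12-week shams alone (edgeR adjusted p = 0.0902). Socs3, a feedback inhibitor of cytokine receptors, rose at 5 weeks by 2.27 ± 0.16 (edgeR adjusted p = 1.98e-09) and after ischemia-reperfusion by 2.24 ± 0.25 (edgeR adjusted p = 1.34e-05).

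Downstream of the receptors, Grb14, an adaptor that dampens insulin receptor signalling, fell at 8 weeks by 1.25 ± 0.13 (edgeR adjusted p = 6.25e-06), at 5 weeks by 0.52 ± 0.09 (edgeR adjusted p = 8.2e-05) and after ischemia-reperfusion by 0.50 ± 0.10 (edgeR adjusted p = 0.00173). Irs1, a docking protein of both receptors, fell by 0.58 ± 0.21 at 8 weeks (edgeR adjusted p = 0.0295). Irs1 did not pass with the replicate number as a block (0.0558) or without wild type replicate 2 or homozygous replicate 2, 3 or 4 (edgeR adjusted p from 0.0678 to 0.15). Irs2 differed by 0.82 ± 0.42 (edgeR adjusted p = 0.11), and by 1.57 without wild type replicate 2 (edgeR adjusted p = 0.00536). Insr, the insulin receptor, fell by 0.37 ± 0.10 (edgeR adjusted p = 0.00549), and with scaling by library size alone its change of -0.21 did not pass (edgeR adjusted p = 0.0739). Eif4ebp1, the translation inhibitor that mTOR phosphorylates, rose at 5 weeks by 0.83 ± 0.07 (edgeR adjusted p = 3.7e-08) and at 8 weeks by 1.52 ± 0.15 (edgeR adjusted p = 5.01e-06). Of 20 genes of the PI3K, Akt and mTOR arm, 10 fell and 1 rose at 5 weeks, or 55% beside 43.7% of all genes, among the falls Foxo4 (-0.43 ± 0.06, edgeR adjusted p = 2.23e-05) and Tsc2 (-0.38 ± 0.06, edgeR adjusted p = 4.83e-05). At 8 weeks 6 of the 20 fell and 3 rose, or 45% beside 59.7% of all genes. Homozygous over heterozygous, 4 were lower and 6 higher, or 50% beside 61.9%. Ctsd, a lysosomal protease that can cleave binding proteins, rose at 5 weeks by 0.66 ± 0.07 (edgeR adjusted p = 2.02e-07). After ischemia-reperfusion 10 of 48 pathway genes were higher and 8 lower, or 37.5% beside 31.0% of all genes, with Ptpn1, a phosphatase of both receptors, higher by 0.85 ± 0.12 (edgeR adjusted p = 0.000119). After infarction 2 of 48 were higher and 5 lower, or 14.6% beside 11.4%, the higher ones Ctsd (0.29 ± 0.09, edgeR adjusted p = 0.0436) and Shc1 (0.28 ± 0.09, edgeR adjusted p = 0.0462). Ctsd lost that call when any 1 library was left out, and Shc1 when any but infarction replicate 4 was, and both lost it against 20-week shams alone (edgeR adjusted p = 0.154 and 0.136).

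Across the 39 libraries the genes whose log2 CPM followed each member most closely were described by Pearson's r, a value that these libraries' shared groups and depth can set. Igfbp7 was most like Mfap5 (0.961) and Mfap4 (0.959), microfibril genes, of which Mfap5 is on the fibroblast list. Igfbp4 was most like Uchl1 (0.959). Within the family Igfbp4 and Igfbp7 were the most alike (0.920). Igf1 was most like Tmem167 (0.908) and Igf2 like Ppp1ca (0.907), a phosphatase subunit. The closest values were lower for Igf1r (0.796, Ano6), Igfbp3 (0.833, Cyp2d22), Igfbp5 (0.802, Adgra1), Igfbp2 (0.756, Comp) and Igf2r (0.682, Sec16a).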

How the data were processed

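Gene expression was measured by stranded mRNA sequencing of left ventricle, per the labels' protocols. The authors deposited 1 table of whole-number read counts per gene for 39 libraries, made with STAR 2.7.3a, featureCounts (Subread 2.0.0) and build mm10, per the submitters' processing notes. Annotation release and strand setting: not given in the sources used here. Identifiers were named from GENCODE vM21 (36345 of 38293). Genes without a name there held 0.133% of counts and stayed in the tests.

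Counts were filtered by expression (filterByExpr), TMM-scaled and fitted with glmQLFit of edgeR 4.0.16 (R 4.3.3), the quasi-likelihood test. The libraries of 1 age, of the surgery set, or of the wild type ages entered each fit, and all 39 entered the tests of differences between effects. P-values were adjusted by Benjamini-Hochberg over all genes of a fit, with a threshold of 0.05. The SE is the log2 change divided by the root of the F statistic. Scripts for the tests were tested on simulated data. The genes and lists were chosen with earlier results of these data known. All 10 genes are described. Pathway genes were named if among the 3 smallest p-values called in a direction of a comparison or on a short fixed list (Ghr, Pappa, Stc2, Irs1, Irs2, Insr, Grb14, H19, Igfals, Igfbp1). Depth was 9402904 to 19320791 counts, so intervals on few counts cover counting error only. Alternatives were DESeq2 1.42.0, other scalings, no filter, all libraries in 1 fit, a replicate block, shams of matching age and each library left out.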

Additional observations from a re-analysis of the deposited data

Results flagged for a closer look

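In 90 groups of 4 libraries tested for a value far from the other 3, 9 stood apart, and chance alone gives about 1 in 20. Igf2r gave 4 of them, 184 CPM in homozygous replicate 1 at 5 weeks, 207 in homozygous replicate 1 and 316 in heterozygous replicate 2 at 8 weeks, and 178 in infarction replicate 3. Heterozygous replicate 2 at 8 weeks also stood apart for Igfbp6 (24.6 CPM) and for Igfbp2 (0.119 CPM, with the other 3 at 0). With 3 values at 0, any value above 0 in the remaining library is flagged, so the Igfbp2 flag carries no weight. Homozygous replicate 3 at 3 weeks stood apart for Igf1 (28.2 CPM) and Igfbp4 (162 CPM). Wild type replicate 1 at 5 weeks was low for Igfbp4 (88.9 CPM).

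Effects that differed between ages or models by the interaction tests of edgeR were as follows, as differences of log2 changes. From 3 to 5 weeks the genotype difference moved by 1.46 for Igf1, -1.10 for Igf2 and 0.73 for Igfbp4. From 5 to 8 weeks it moved by 1.77 for Igf2, 2.39 for Igfbp3, 1.27 for Igfbp4, 0.63 for Igfbp5, 2.66 for Igfbp6 and 1.76 for Igfbp7. That of Igfbp5 (edgeR adjusted p = 0.0199) did not pass with scaling by library size alone, nor without homozygous replicate 2 or 3 at 8 weeks. The 8-week genotype difference exceeded the infarction difference by 1.91 for Igf2, 1.72 for Igfbp3, 1.5 for Igfbp4, 1.80 for Igfbp6 and 1.0 for Igfbp7.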

How the results depend on the processing

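Of 55 called results of the 9 genes other than Igfbp2, 44 kept call and direction in every alternative run. Among 1788 recomputed values of the 10 genes none that had been called changed sign, while 32 that were uncalled did. At 3 weeks 1 gene, Igfbp5, was called without a filter, with all 39 libraries in the fit and by DESeq2, against 0. Scaling by library size alone called 5 genes after ischemia-reperfusion against 3, adding Igf1r and Igfbp3. It moved the median log2 change of all genes to 0.21 at 5 weeks (5384 higher and 1413 lower, against 2969 and 2852), 0.19 at 8 weeks (5402 and 3086, against 4404 and 4148), 0.22 for homozygous over heterozygous (5969 and 2939, against 4576 and 4288), 0.20 after ischemia-reperfusion (4180 and 431, against 2301 and 1921), 0.11 after infarction (1402 and 318, against 901 and 649), 0.12 between injuries (2357 and 569, against 1527 and 1203) and 0.17 for the 3- to 5-week interaction (2668 and 580, against 1655 and 1387). For the 5- to 8-week interaction it moved the other way, to -0.07 (1637 and 2545, against 2152 and 2066).

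With age in wild type, 3 genes were called in the fit of all 39 libraries and 3 without wild type replicate 3 at 8 weeks, against 7, and with 3- and 8-week libraries alone, a fit chosen after seeing the data, Igf1 and Igfbp5 were not called (edgeR adjusted p = 0.0533 and 0.0577). Leaving out each library in turn gave 0 to 0 called genes at 3 weeks, 4 to 6 at 5 weeks, 8 to 9 at 8 weeks (Igfbp2 counted here and below), 7 to 9 for homozygous over heterozygous, 2 to 3 after ischemia-reperfusion, 5 to 6 after infarction, 3 to 4 between injuries and 3 to 6 with age. Without homozygous replicate 1, 2 or 3 at 8 weeks Igfbp2 did not pass the filter, so the lower counts there include a gene left untested. Of all genes, the same runs called 0 to 4 at 3 weeks, 5255 to 5872 at 5 weeks and 7579 to 8868 at 8 weeks. They called 8082 to 9110 for homozygous over heterozygous, 3297 to 4146 after ischemia-reperfusion and 663 to 1569 after infarction. Between injuries the range was 2137 to 2494, and with age 1350 to 2162. Of all genes, infarction called 1550, 853 against 20-week shams, 957 and 663 without infarction replicate 1 or 2 and 789 without the first 20-week sham. Ischemia-reperfusion called 2174 against 12-week shams and 4222 against all. Age called 2245, 1254 when all libraries were fitted and 1350 without wild type replicate 2 at 8 weeks. At 3 weeks the 0 genes became 25 without a filter, 40 with all libraries, 112 by DESeq2 and 4 without homozygous replicate 2.

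Deviations of same-numbered libraries from their group means correlated weakly (r from -0.101 to 0.189), so the main fits held no pairing. With 2 to 4 pairs for each pair of groups, this cannot exclude that the numbers pair some libraries. With Igfbp2 counted at 8 weeks, the replicate block called 0 genes at 3 weeks, 7 at 5 weeks (adding Igfbp3), 9 at 8 weeks, 8 for homozygous over heterozygous, against 9 (losing Igf2), 3 after ischemia-reperfusion, 6 after infarction and 4 in the 3- to 5-week interaction, against 3 (adding Igfbp7). Depth limits Igfbp2, with 82 counts or fewer in any group.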
